A study of Mus musculus with 2 samples.

Results

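Genes of sterol synthesis and lipid handling were followed in macrophages of the mouse colon during chemically induced colitis. The 48 genes were taken by symbol from a list covering cholesterol synthesis, its control, fatty acid synthesis, lipid storage, fatty acid binding, cholesterol efflux and oxysterol synthesis. Of these, 46 had a probe set assigned to them alone, among 19938 genes measured in this way. The study compared inflammatory with control macrophages, using 1 array each. The control array held RNA of macrophages from untreated mice that drank water for 5 days, and the other array RNA of macrophages from mice given 3% (wt/vol) dextran sulfate sodium (DSS), a polymer that injures the colon lining, in the drinking water for 5 days. On both arrays the cells had been sorted from the lamina propria as CD45+IAb+CD11b+F4/80+CD103-. The labels give no strain, sex or age of the mice and no number of mice behind an array.

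Cells make cholesterol from acetyl-CoA through mevalonate, isoprenoids, squalene and a series of sterols. The SREBP transcription factors, held in the endoplasmic reticulum by INSIG proteins when sterols are plentiful and escorted out by SCAP when they are scarce, switch on most enzymes of this route, while fatty acids are made by a neighbouring route and stored as triglyceride in lipid droplets. Macrophages take up much lipid from dying cells and lipoproteins. They pass out surplus cholesterol by way of ABC transporters and apolipoprotein E, and turn some cholesterol into oxysterols.

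The start-site regions of the sterol synthesis genes held a feature in common. RefSeq windows on assembly GRCm38.p6, from 250 bases before to 50 after each annotated start, were at hand for 36 of the 48 genes, including 14 of the 17 sterol synthesis enzymes. All 14 of these genes had at least 1 window with the letters CCAAT on either strand, the motif bound by the factor NF-Y, which is known to act beside SREBP at sterol genes. The share was 41.1% among all 27025 genes of that table and 42.3% among its 17492 protein-coding genes. Counted by window, 14 of 17 windows of the enzymes (82.4%) held the motif, against 37.4% of all 32851 windows. In 9 of the 14 genes a single window held at least 2 copies, which 14.6% of protein-coding genes showed. Of the 22 genes outside sterol synthesis that had a window, 12 (54.5%) held the motif. The windows below are printed because Hmgcs1 and Mvk carry many copies at the entry of the pathway, Pmvk is the one sterol enzyme that differed 2-fold between the arrays, and Pltp is an efflux gene for comparison. Capitals mark CCAAT or its reverse complement ATTGG and, in Hmgcs1, a match to TCACNCCAC, a form of the sterol regulatory element.
Hmgcs1, chr13:119690101-119690400, plus strand: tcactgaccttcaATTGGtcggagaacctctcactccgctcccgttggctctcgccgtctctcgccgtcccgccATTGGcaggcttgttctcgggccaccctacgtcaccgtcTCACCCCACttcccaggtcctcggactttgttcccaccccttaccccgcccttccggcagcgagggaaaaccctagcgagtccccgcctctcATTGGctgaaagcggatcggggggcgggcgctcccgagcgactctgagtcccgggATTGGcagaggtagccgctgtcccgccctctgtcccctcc
Mvk, chr5:114444019-114444318, plus strand: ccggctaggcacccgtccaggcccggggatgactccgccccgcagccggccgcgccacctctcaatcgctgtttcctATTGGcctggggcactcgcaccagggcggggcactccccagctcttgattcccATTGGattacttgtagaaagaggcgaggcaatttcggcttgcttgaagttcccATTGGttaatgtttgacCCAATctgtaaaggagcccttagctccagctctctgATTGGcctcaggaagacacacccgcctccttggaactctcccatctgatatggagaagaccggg
Pmvk, chr3:89454291-89454590, plus strand: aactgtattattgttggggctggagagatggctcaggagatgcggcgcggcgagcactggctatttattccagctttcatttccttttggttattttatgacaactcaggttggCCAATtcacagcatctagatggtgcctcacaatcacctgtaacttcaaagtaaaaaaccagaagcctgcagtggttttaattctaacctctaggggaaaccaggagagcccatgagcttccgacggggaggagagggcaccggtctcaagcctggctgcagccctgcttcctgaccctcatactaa
Pltp, chr2:164857659-164857958, minus strand: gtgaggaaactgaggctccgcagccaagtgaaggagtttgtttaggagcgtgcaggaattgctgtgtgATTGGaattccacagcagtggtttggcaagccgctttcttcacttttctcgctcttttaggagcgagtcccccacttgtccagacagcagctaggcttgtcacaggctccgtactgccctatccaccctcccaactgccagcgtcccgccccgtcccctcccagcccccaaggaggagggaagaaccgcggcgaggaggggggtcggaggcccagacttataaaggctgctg

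In the Hmgcs1 window the 4 CCAAT copies began 237, 176 and 45 bases before the start and 10 bases after it, and the sterol element began 137 bases before it. The Mvk window had 5 copies, the highest number among the enzymes. Pmvk had 1 copy, 136 bases before the start, in 1 of its 2 annotated windows. The single Pltp copy lay 182 bases before the start. Over the 14 enzyme genes, 13 had a copy within 100 bases before a start, and Pmvk was the exception. The sterol element was found in no other enzyme window and in 1.24% of all windows. The GC box GGGCGG, searched on both strands, was in 13 of the 14 genes (92.9%), against 49.2% of protein-coding genes, and the E-box CACGTG in 3 (21.4%), against 8.91%. Genes outside sterol synthesis held the GC box in 68.2% and the E-box in 27.3%, so the E-box was no more frequent in the enzymes than in the other listed genes. None of these 4 motifs contains another. They were chosen after the expression values were known, and a match describes letters in a window, not a bound site.

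**Figure D1:**
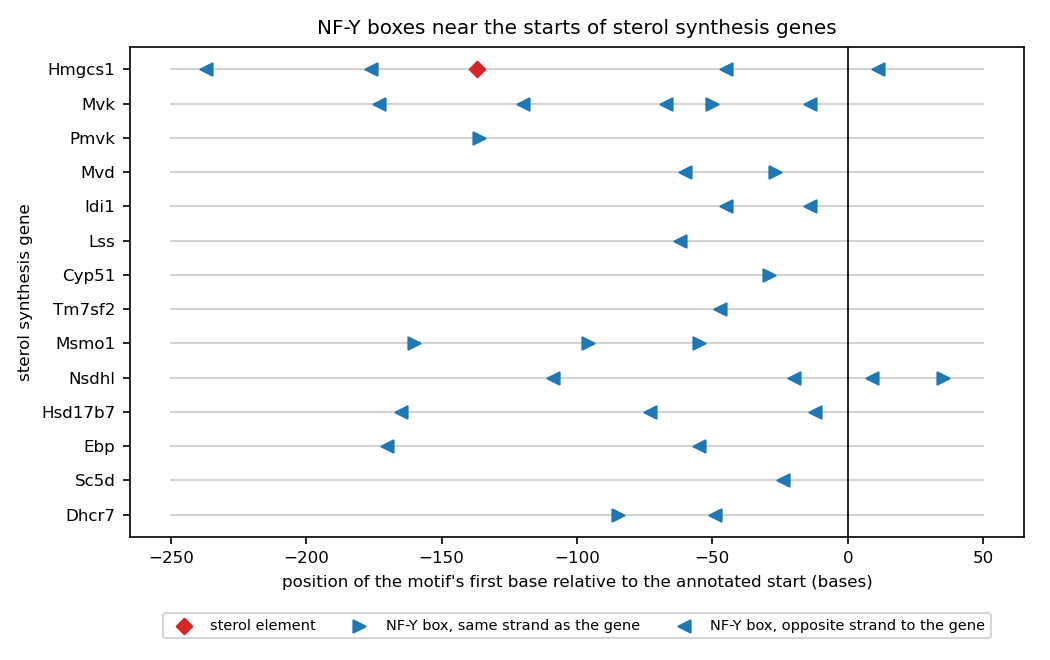
Positions of matches to the NF-Y motif (triangles, pointing with the strand of the match) and to the sterol element (diamond) in start-site windows of 14 sterol synthesis genes, all windows of a gene on 1 line. The x axis is the distance in bases from the annotated start, and every gene but Pmvk has a triangle within 100 bases before it.

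Expression is given as the deposited log2 signal, and a difference is DSS minus control on that scale, so that 1 stands for 2-fold. A gene was counted when its signal reached the median of the array, 5.70 in control and 5.62 in DSS, on at least 1 of them. This held for 44 of the 46 measured genes and for 11163 genes in all. The 2 left out were Lss (lanosterol synthase), at 4.93 in control and 5.00 in DSS, and Fads2 (delta-6 desaturase), at 5.47 and 5.24. Soat1, the cholesterol acyltransferase, had no listed probe set, and Apoc2 had only a shared one. Since each group has 1 array, no replicate error and no test can be given, and each difference compares these 2 arrays and not the conditions. As a yardstick for probe noise alone, probe sets of the same gene differed with a pooled SD of 0.28 in 638 genes.

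The arrays also differed in markers of other myeloid cells. All 12 neutrophil markers were at least 2-fold higher in DSS (100%, against 3.99% of all 11163 counted genes), with a median difference of 4.47. Their summed linear signal was 2009 in control and 33721 in DSS. In 7 of the 12 the control signal was under the control median, so they were counted only through their DSS signal. The folds of these 7 and the median of the list are therefore inexact. Ly6g, a defining neutrophil antigen, read 4.04 in control, under that array's median, and 10.01 in DSS. All 6 measured monocyte markers were at least 2-fold higher (100%, against 3.99% of all genes), with a summed signal of 1799 in control and 15296 in DSS. Chil3, 1 of the 6, was counted only through its DSS signal. Of 12 resident macrophage markers, 7 were at least 2-fold lower (58.3%, against 3.03% of all genes), with a summed signal of 22004 in control and 8953 in DSS. All 4 sort antigens that had to be present were above both medians and within 2-fold, while Itgae (CD103), which the sort removed, was under both. In bulk RNA, fewer cells of a type and less RNA per cell cannot be told apart. The part of these markers in the lipid gene values below was not tested.

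Lipid genes differed in a few places rather than as a block. Of the 44 counted genes, 6 were at least 2-fold higher in DSS (13.6%), where 3.99% of all 11163 genes were, and 2 were at least 2-fold lower (4.55%), where 3.03% of all genes were. The 6 were Dgat1, Fabp4, Fabp5, Dgat2, Scd1 and Pmvk, and the 2 were Fads1 and Pltp. The remaining 36 lay within 2-fold. Scd1 was counted only through its DSS signal. With both arrays required to reach their medians, 5 of 42 listed genes were 2-fold higher and 2 were 2-fold lower. Under that rule 599 of 10052 genes in all were 2-fold apart in either direction. The median difference of the 44 was -0.02 and their mean 0.08, against a median of -0.03 over all genes. Only 3 of the 44, Dgat1, Fabp4 and Fabp5, passed 3-fold, all in the higher direction, where 301 of 11163 genes were 3-fold apart in either direction.

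**Figure D2:**
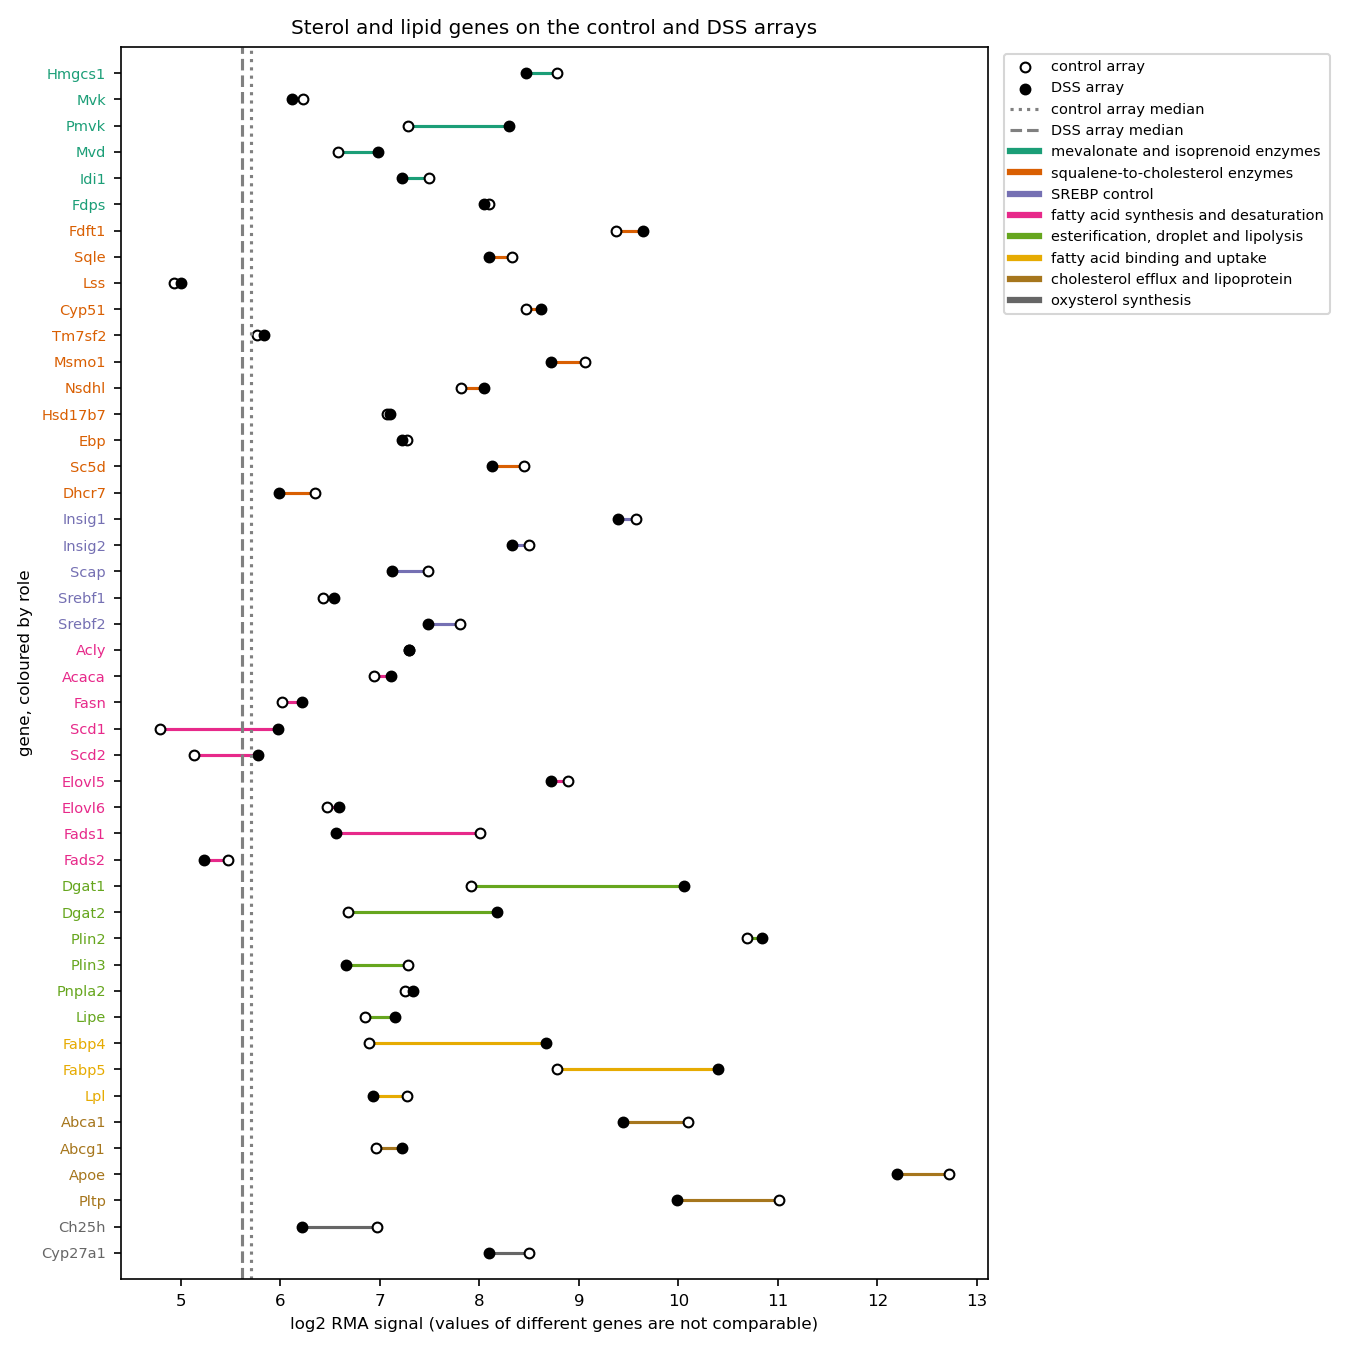
Log2 signal (x axis) of the 46 measured genes (y axis, coloured by role) on the control array (open points) and the DSS array (filled points), with the median of each array as a vertical line. Long bars to the right mark Dgat1, Dgat2, Fabp4 and Fabp5, and the bars of the sterol enzymes other than Pmvk are short.

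The first steps of sterol synthesis showed 1 gene apart from the rest. Pmvk, the phosphomevalonate kinase, read 7.29 in control and 8.29 in DSS, or 2.01-fold higher, just past the 2-fold size. Mvd, the decarboxylase that follows it, read 6.58 and 6.98. The other 4 enzymes of these steps had negative differences in the deposited values. Hmgcs1, the HMG-CoA synthase that opens the route, read 8.78 and 8.47, and Idi1, the isopentenyl diphosphate isomerase, 7.50 and 7.22. Mvk (mevalonate kinase) read 6.22 and 6.12 and Fdps (farnesyl diphosphate synthase) 8.09 and 8.05, and the sign of both depended on how the arrays were scaled. The second probe set of Idi1 gave a difference of -0.13, beside -0.28 for the one used.

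None of the 10 counted enzymes from squalene to cholesterol differed 2-fold, and their differences ran from -0.36 to 0.27. Among all genes 3.99% were 2-fold higher and 3.03% 2-fold lower, so a count of 0 in 10 is near those shares. Fdft1, the squalene synthase, read 9.37 in control and 9.64 in DSS, with differences of 0.27 and 0.16 in its 2 probe sets. Sqle, the squalene epoxidase and a rate-limiting step, read 8.33 and 8.10. Together these enzymes divided evenly, with 5 positive and 5 negative differences. Msmo1, of C4 demethylation, went from 9.06 in control to 8.72 in DSS, and the desaturase gene Sc5d from 8.45 to 8.13. Dhcr7, which completes cholesterol, had the lowest difference, from 6.35 to 5.99. On the other side were Nsdhl, also of C4 demethylation, at 7.82 and 8.05, and Cyp51, the lanosterol demethylase, at 8.47 and 8.62. Tm7sf2 (a C14 sterol reductase), Hsd17b7 and Ebp, which also act after lanosterol, differed by 0.07, 0.03 and -0.05, and the sign of Ebp turned under median centring.

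Over the whole route, 1 of 16 counted sterol enzymes was 2-fold higher (6.25%, against 3.99% of all genes) and 0 were 2-fold lower (against 3.03%), close to those shares. Their median difference was -0.05 and their mean 0.01, and the median became 0.04 under median centring, so it has no settled sign. The quartiles of these differences were -0.29 and 0.17, against -0.28 and 0.25 for all genes.

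The control genes of the route lay within 2-fold, as did 10380 of all 11163 genes. Of their 5 differences 4 were negative, as were 5920 of those of all 11163 genes. Their median was -0.18, against -0.03 over all genes. Srebf2, which encodes the SREBP that chiefly drives cholesterol genes, read 7.81 in control and 7.49 in DSS, and Scap, its escort, 7.48 and 7.12. Insig1 and Insig2, the retention proteins, differed by -0.18 and -0.17. Srebf1, whose products favour fatty acid genes, read 6.43 and 6.54. A second probe set listing Srebf2 among 4 symbols differed by -0.13 and was not counted. Every one of these 5 differences is smaller than 0.39, the robust SD of the differences over all genes.

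Of the 8 counted genes of fatty acid synthesis and desaturation, 1 was 2-fold higher (12.5%, against 3.99% of all genes) and 1 was 2-fold lower (12.5%, against 3.03%). These were Scd1, counted only through its DSS signal, and Fads1, and the other 6 lay within 2-fold. Acly, which makes cytosolic acetyl-CoA from citrate, read 7.30 on both arrays. Acaca, the acetyl-CoA carboxylase of the committed step, read 6.94 and 7.11, and its second, dim probe set 4.70 and 5.31. Fasn, the fatty acid synthase, read 6.01 and 6.22. The elongase genes Elovl5 and Elovl6 differed by -0.16 and 0.12.

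The delta-9 desaturase Scd1, which makes monounsaturated fatty acids, read 4.79 in control and 5.98 in DSS, a 2.28-fold difference. Its relative Scd2 read 5.13 and 5.78. Both control signals lay under the control median, and without detection calls the part of background in them is not known, so the folds are inexact. Cross-hybridisation between these close relatives was not tested. Fads1, the delta-5 desaturase that makes arachidonic and eicosapentaenoic acid, went the other way and had the largest lower difference of the 44. It read 8.01 without and 6.56 with DSS, a 2.73-fold lower value. Both of its signals were above the medians. It ranked 159 from the lowest of 11163 genes.

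Triglyceride synthesis held the largest difference among the 44 counted genes. Dgat1, 1 of the enzymes that add the last acyl chain to diacylglycerol, read 7.91 without and 10.05 with DSS. It was 4.41-fold higher and ranked 110 from the highest of 11163 genes. Dgat2, an unrelated enzyme of the same reaction, read 6.68 and 8.17, or 2.81-fold higher. All 4 signals were above the array medians. The droplet coat and lipase genes did not follow them. Plin2, the coat protein of macrophage droplets, read 10.69 and 10.84. Plin3, another coat protein, read 7.28 and 6.66, or 1.54-fold lower. Pnpla2 (adipose triglyceride lipase) read 7.25 and 7.33, and Lipe (hormone-sensitive lipase) 6.85 and 7.15. Over the 12 counted genes of fatty acid synthesis and storage the median difference was 0.16, with 3 at least 2-fold higher (25%, against 3.99% of all genes) and 1 at least 2-fold lower (8.33%, against 3.03%). Of the 3, Scd1 was counted only through its DSS signal, as was Scd2 among the 12. With both arrays required to reach their medians, both genes drop out, which leaves 10 genes and a median of 0.14.

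Fabp4 and Fabp5, which encode fatty acid binding proteins, were at least 2-fold higher in DSS. Fabp4, the carrier shared by adipocytes and macrophages, read 6.89 in control and 8.67 in DSS, or 3.43-fold higher. Fabp5, its epidermal relative, read 8.78 and 10.40, or 3.07-fold higher, and its second probe set went from 8.70 to 10.40. The 2 probe sets of Fabp5 differed by 0.08, and whether Fabp4 and Fabp5 cross-hybridise was not tested. Lpl, the lipase that frees fatty acids from lipoproteins, read 7.27 and 6.93. Adipocyte markers were at hand for 5 genes, of which 3 were under both array medians, and their summed linear signal was 187 in control and 214 in DSS. Adipoq, a defining adipocyte gene, read 4.41 and 5.43. Of 10 epithelial markers 5 were under both medians, and their summed signal was 687 in control and 847 in DSS. Among them Fabp2, the intestinal fatty acid binding protein gene and no member of the list, read 5.96 and 7.36, or 2.64-fold higher. The Dgat and Fabp genes stood beside a neutrophil list higher by a median of 4.47, whose part was not tested.

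**Figure D3:**
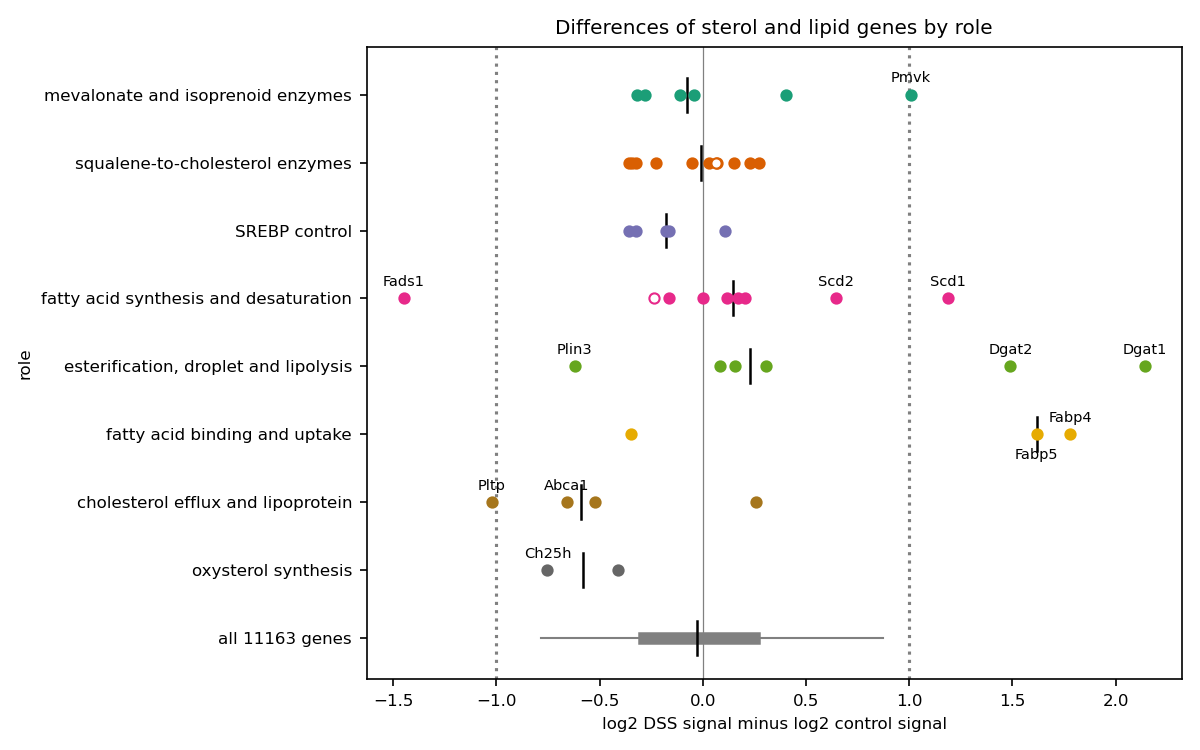
Difference between arrays (x axis, log2 DSS minus log2 control) for the 46 measured genes by role (y axis), with open points for the 2 genes under both array medians, short vertical lines for the median of the counted genes of a role and dotted lines at 2-fold. The grey bar gives the 25th to 75th and the thin line the 5th to 95th percentile (-0.78 to 0.87) of all 11163 genes. Dgat1, Dgat2, Fabp4, Fabp5, Scd1 and Pmvk lie to the right of that range and Fads1 and Pltp to the left.

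The efflux and lipoprotein genes had the lowest median of the 3 classes compared. It was -0.59 over 4 counted genes, against -0.05 for sterol enzymes and 0.16 for fatty acid synthesis and storage. Pltp, the phospholipid transfer protein, read 11.01 without and 9.99 with DSS, which is 2.03-fold lower. Its difference was -0.94 under median centring, short of 2-fold. Abca1, which loads cholesterol onto lipid-poor apolipoprotein, read 10.10 and 9.44, or 1.58-fold lower. Apoe, the apolipoprotein that macrophages secrete, read 12.72 and 12.19. Abcg1, which exports cholesterol to mature lipoproteins, lay on the other side, at 6.96 and 7.22. The class median does not stand for all lipoprotein genes. Of related genes in the further lists below, picked after their values were seen, Apobr, Apoc1 and Scarb1 differed by 0.94, 0.88 and 0.12. Abca7 differed by -0.20. The control signal of Apoc1, 5.31, was under the control median. Both oxysterol genes lay within 2-fold, with Ch25h (cholesterol 25-hydroxylase) at 6.97 and 6.22 and Cyp27a1 (sterol 27-hydroxylase) at 8.50 and 8.09. All 12 resident macrophage markers had negative differences, with a median of -2.18, and their part in these values was not tested.

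A single probe set assigned to both Gm44805 and Apoc2, the lipoprotein lipase activator, read 7.73 in control and 9.02 in DSS. It cannot be given to either gene and was left out of the counts. With it, 7 genes would be at least 2-fold higher and the efflux median would be -0.52.

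Further genes of these pathways included larger differences than any of the 48. Of 24 measured genes of fatty acid and triglyceride metabolism, 20 were counted, 2 were higher by 2-fold or more (10.0%, against 3.99% of all genes) and 2 lower (10.0%, against 3.03%). Apobr passed 2-fold as higher under median centring, and Mid1ip1 as lower under loess centring. G0s2, an inhibitor of the lipase encoded by Pnpla2, read 7.33 in control and 10.56 in DSS, or 9.38-fold higher. Elovl7, an elongase, read 6.08 and 7.49. Cd36, the fatty acid and oxidised lipoprotein receptor, read 11.85 and 8.60, or 9.49-fold lower. Lpin1, a phosphatidic acid phosphatase that supplies diacylglycerol, read 7.07 and 5.64, the latter just over the DSS median. The median difference of this list was 0.08.

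No gene of the other sterol list, with 11 of 18 entries measured and counted, differed 2-fold, and the median was -0.10. With 3.99% of all genes 2-fold higher and 3.03% 2-fold lower, a count of 0 in 11 is near those shares. The lysosomal genes Lipa (acid lipase) and Npc1 (cholesterol exit) had the lowest differences, -0.78 and -0.65, with Lipa at 10.23 in control and 9.45 in DSS and Npc1 at 9.45 and 8.80. Nr1h3, which encodes the oxysterol receptor LXR alpha, had the highest difference, 0.82, at 5.71 and 6.53 with its control signal at the array median, followed by Scarb1, a lipoprotein receptor, with a difference of 0.12. Among 10 counted fatty acid oxidation genes 1 was 2-fold higher (10.0%, against 3.99% of all genes), the carnitine carrier gene Slc25a20, at 6.87 and 8.07. Acaa2, a thiolase, followed with a difference of 0.35, and the dehydrogenase gene Acadm and the carnitine transferase gene Cpt2 were lowest, at -0.44 and -0.13. The list's median was 0.07.

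**Figure D4:**
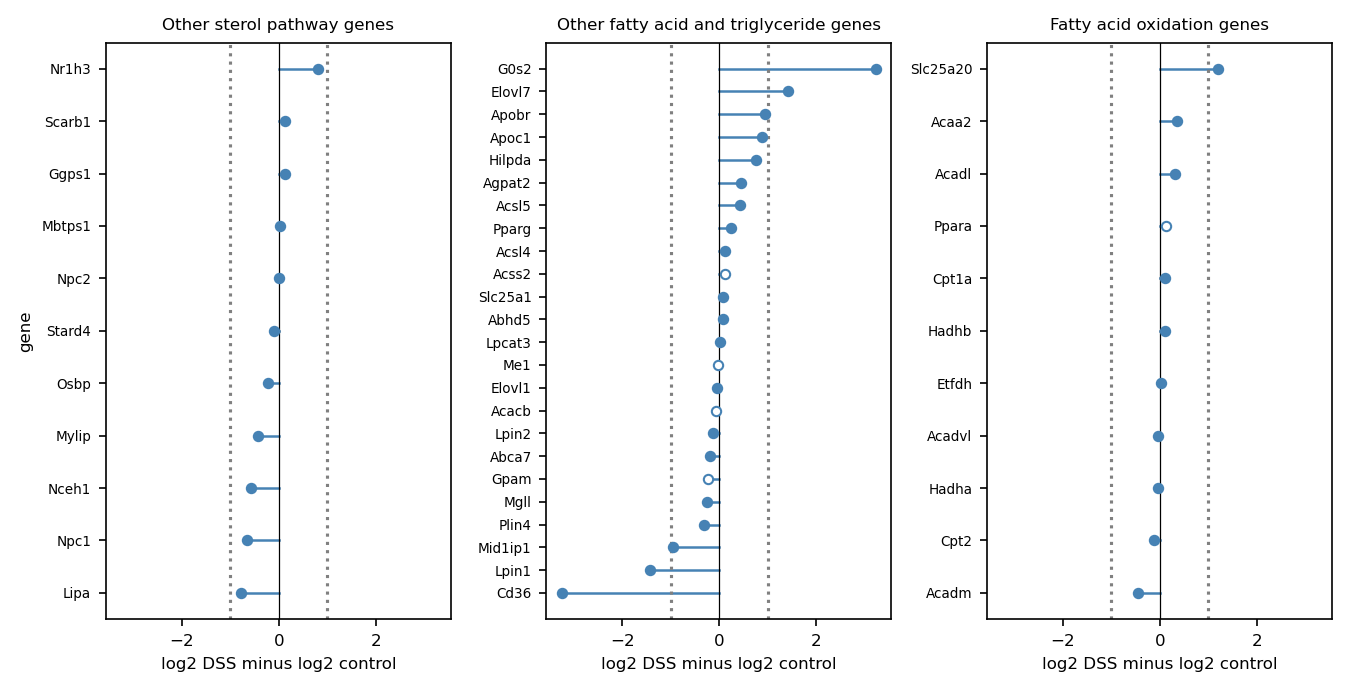
Difference between arrays (x axis, log2 DSS minus log2 control) for the measured genes (y axis) of 3 further lists, with open points for genes under both array medians and dotted lines at 2-fold. G0s2 and Cd36 lie farthest out, at 3.23 and -3.25, and most oxidation genes lie near 0.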

How the data were processed

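The deposited table holds 1 log2 signal per probe set and array, for 35556 probe sets, made by the authors with RMA (background correction, quantile normalisation and summary of probes on the log2 scale), per the submitters' processing notes. RMA version and settings and the build were not given in the sources used here. Total RNA of 100 ng was labelled per the labels' protocols. RMA shrinks differences between dim probe sets. No detection calls came with the values, and scan or hybridisation batch and treatment cannot be told apart.

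Probe sets were named from the platform annotation, with 21789 assigned to 1 symbol and 1621 to several. The 50 probe sets assigned to 1 of the 48 genes alone all kept that symbol by Entrez identifier in the RefSeq table. Array medians used 28939 probe sets, those from the lowest listed identifier on. A gene took its brightest probe set with 1 symbol. Genes at least 2-fold apart were counted. All 48 genes may be named, and of the 3 further pathway lists those at 2-fold and the 2 farthest in each direction. Genes, lists and rules were chosen with earlier results of these data known. The alternatives tried were other scalings, probe set choices, signal rules, floors, fold sizes and the mean of a class in place of its median. The steps were tested on simulated data. Python 3.11.15, numpy 2.4.6, pandas 2.3.3, statsmodels 0.14.6 and matplotlib 3.10.9 were used.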

Additional observations from a re-analysis of the deposited data

Results flagged for a closer look

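The probe set assigned to both Gm44805 and Apoc2, which no count uses, had a difference of 1.30 (log2 DSS minus log2 control), 2.45-fold above its control signal. It drew attention because it lies outside the counted values and is over 2-fold. The values do not show which of the 2 genes it measures.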

How the results depend on the processing

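The 6 genes at least 2-fold higher were the same under loess centring (span 0.4), median centring, the mean of a gene's probe sets, a floor at the 25th percentile and no signal rule. With both arrays required to reach their medians, 5 of them remained, without Scd1, which follows from its dim control signal. At 1.5-fold, 7 genes were higher, 5 were lower and 2082 of all genes were apart, and at 3-fold the counts were 3, 0 and 301, against 6, 2 and 783 at 2-fold. Median centring left 1 gene lower, since Pltp missed 2-fold. The class medians moved by less than the SD between probe sets under all alternatives, from -0.05 to 0.04 for sterol enzymes, 0.14 to 0.25 for fatty acid synthesis and storage and -0.74 to -0.51 for efflux genes. The means in their place were 0.01, 0.32 and -0.49. Of 184 recomputed gene differences, 0 moved by more than that SD, but for most of them this was fixed in advance. Median centring shifts every gene by the same 0.08, the floor changed no value, and averaging probe sets can change only the 4 genes with 2. Loess centring, which can shift each gene by its own amount, had a largest shift of 0.19. Mvk, Fdps and Ebp changed sign under at least 1 scaling, while Acly, at a difference of 0, took one. The alternatives that count shared probe sets and that rescale the further lists were chosen after seeing the data. No paired analysis was possible because each group has 1 array, and leaving out a replicate was not possible for the same reason. The number of arrays limits the precision, and signals near or under the array medians limit the folds of Scd1, Scd2 and Lpin1. The same limit holds for the neutrophil markers under the control median.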

Other observations

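Membrane lipid genes, in lists drawn up after the values above were seen, gave a similar mixed picture. Of 22 measured sphingolipid enzymes, 21 were counted, 2 were at least 2-fold higher in DSS (9.52%, against 3.99% of all genes) and 1 at least 2-fold lower (4.76%, against 3.03%), with a median difference of -0.07. Sgms2, a sphingomyelin synthase, read 7.21 in control and 9.67 in DSS, or 5.51-fold higher, and Cers6, a ceramide synthase, read 8.48 and 10.53, or 4.14-fold higher. Sgms1, the relative of Sgms2, differed by -0.27. The listed relatives of Cers6 were mixed, with Cers2 at 0.11, Cers4 at -0.91 and Cers5 at 0.03. Cers4 read 6.51 in control and 5.60 in DSS, the latter under the DSS median. The sign of Cers5 turned under loess centring. Smpd1, the acid sphingomyelinase, read 7.28 and 6.28, or 2.01-fold lower, and missed 2-fold under median and loess centring, with differences of -0.92 and -0.93.

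Of 29 measured genes of phospholipid synthesis and remodelling, 27 were counted, 1 was 2-fold higher (3.70%, against 3.99% of all genes) and 0 were 2-fold lower (against 3.03%). Mboat1 also passed 2-fold as higher under both centrings, and Pcyt1a as lower under loess centring. The 1 gene was Pgs1, the first enzyme committed to cardiolipin, at 6.43 in control and 7.71 in DSS. Pcyt1a, the regulated step of phosphatidylcholine synthesis, read 9.43 and 8.46, and the median of the list was 0.20. These values stood beside the same neutrophil markers, higher by a median of 4.47, whose part was not tested.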
